A study of Mus musculus with 2 samples.

Results

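The Notch receptors, their ligands and their best known target genes were examined in the vaginal wall of *Fbln5-/-* and WT mice. The group comprised 10 genes, namely *Notch1*, *Notch2*, *Notch3*, *Notch4*, *Jag1*, *Jag2*, *Dll1*, *Dll4*, *Hes1* and *Hey1*. Every probe set listed with exactly 1 of these gene symbols was taken, which gave 19 of the 45101 probe sets on the Affymetrix mouse 430 2.0 array, for 10 of 18194 genes listed. Total RNA was from whole vaginal tissue of female *Fbln5-/-* mice, which lack the elastic fiber protein fibulin-5, and of female wild type mice, both labelled C57/Bl6 and 6 months of age. All animals were ovariectomized and given estradiol at 50 µg/kg/d for 3 d. The sample labels place ovariectomy at 11 d, whereas the methods start estradiol 2 weeks after ovariectomy. There was 1 array per genotype. The methods name 2 animals in each group and do not state whether RNA was pooled, so no difference below has a replicate check, an error between animals or a p-value, and every ratio is only as precise as a single pair of arrays allows.

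Notch is a receptor system in which ligand and receptor both sit in cell membranes, so that signals pass between touching cells. Jagged and Delta-like ligands bind the receptor, proteases then cut it, and the freed intracellular part moves to the nucleus, where it joins the DNA-binding protein RBPJ and Mastermind-like coactivators to switch on genes such as *Hes1* and *Hey1*. In stratified epithelium Notch signaling accompanies the exit of cells from the basal layer, *Notch3* is known from smooth muscle cells and pericytes, and *Notch4* and *Dll4* from endothelium.

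Signals were scaled to a common median on both arrays and a probe set was kept if it reached 100 on at least 1 array. Of the 19 probe sets, 14 passed, representing 9 of the 10 genes. The other 5 were under 100 on both arrays and have no fold. None of the 14 was higher by 2-fold or more on the *Fbln5-/-* array, and 3 were lower by 2-fold or more, 1 each of *Notch3*, *Jag1* and *Jag2*. Among all 21512 probe sets kept, 6.49% were at least 2-fold higher and 8.53% at least 2-fold lower. With signals under 100 set to 100 the count was again 3, and 6.28% of all probe sets kept were lower. The median log2 ratio of *Fbln5-/-* over WT was −0.14 for the 14 probe sets and 0.10 for all probe sets kept.

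When each gene was represented by its strongest probe set, the one with the highest signal averaged over both arrays, no gene of the 9 was 2-fold different in either direction. Of 11936 genes, 7.21% were higher and 4.78% lower on this basis. The log2 ratios of the 9 genes ranged from −0.28 for *Hes1* to 0.96 for *Jag1*, 5 above and 4 below 0, with a median of 0.29 against 0.16 for all genes. All 3 decreases of at least 2-fold were thus seen at the weaker probe sets of genes whose strongest probe set was within 2-fold.

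**Figure D1:**
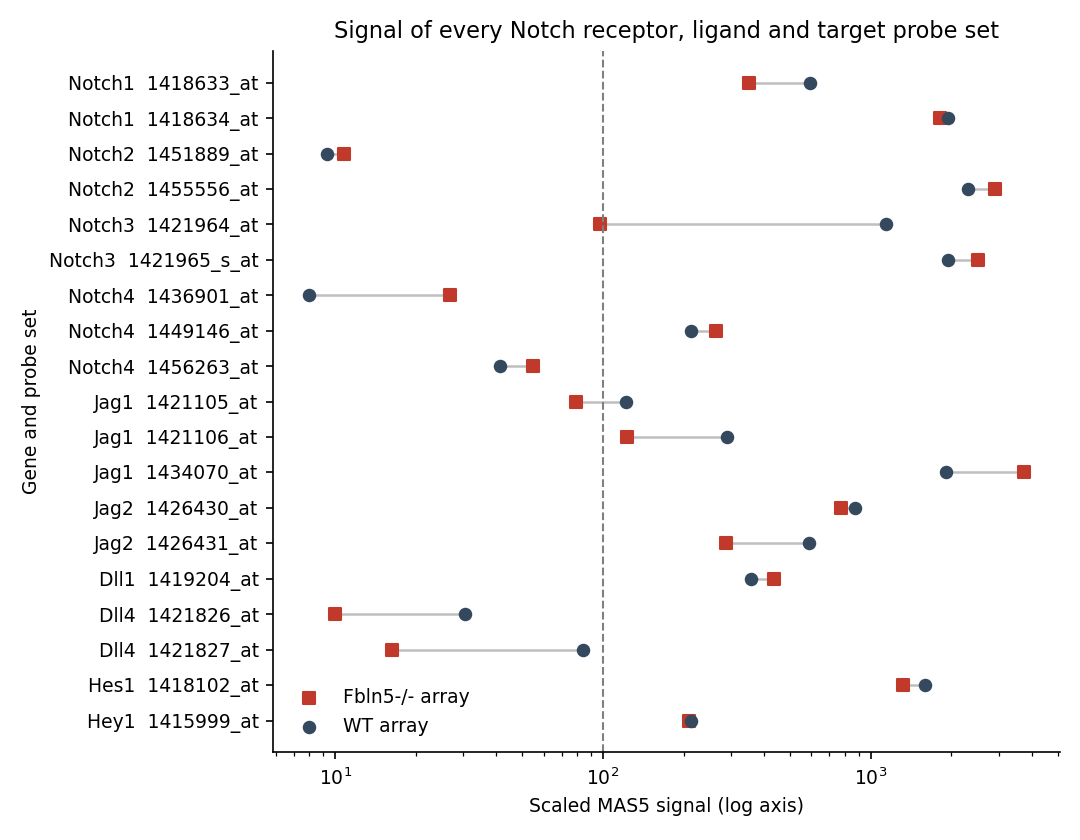
Scaled signal (log axis) of each of the 19 probe sets on the *Fbln5-/-* array (red squares) and the WT array (dark circles), 1 array each, with a dashed line at 100. The *Notch3* probe set 1421964_at has the widest gap among those that reach 100 on an array (97.6 and 1143), and both *Dll4* probe sets lie left of the line.

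*Notch1* encodes a receptor known for its part in epidermal differentiation. Its stronger probe set (1418634_at) had a signal of 1821 on the *Fbln5-/-* array and 1943 on the WT array, a log2 ratio of −0.09. The second probe set (1418633_at) had 351 for *Fbln5-/-* and 593 for WT, a log2 ratio of −0.76. Both ratios were below 0 and neither reached 2-fold, and both probe sets carry the same transcript accession in the annotation.

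*Notch2* encodes a receptor expressed in many tissues. It had a signal of 2902 for *Fbln5-/-* and 2308 for WT at 1455556_at, a log2 ratio of 0.33. At the other probe set (1451889_at) the signals were 10.8 and 9.34 on the *Fbln5-/-* and WT arrays, under 100 on both, so the gene rests on 1 probe set.

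*Notch3* encodes the receptor of vascular smooth muscle, and its probe sets went opposite ways. At 1421965_s_at the signal was 2521 for *Fbln5-/-* and 1936 for WT, a log2 ratio of 0.38. At 1421964_at it was 97.6 for *Fbln5-/-* and 1143 for WT, at least 11.4-fold lower against the limit of 100. Both probe sets carry the same accession, so the array gives no single direction for *Notch3*. As measured, the log2 ratio of the lower probe set was −3.55, and 1.01% of all probe sets kept had a ratio as low or lower.

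*Notch4* encodes an endothelial receptor. It had a signal of 264 for *Fbln5-/-* and 213 for WT at 1449146_at, a log2 ratio of 0.31. The remaining probe sets stayed under 100 on both arrays, with signals of 26.7 for *Fbln5-/-* and 7.98 for WT at 1436901_at and 54.8 for *Fbln5-/-* and 41.3 for WT at 1456263_at. The direction for *Notch4* thus rests on 1 probe set.

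*Jag1* encodes a Jagged ligand, and its 3 probe sets also split. The strongest (1434070_at) had a signal of 3733 for *Fbln5-/-* and 1916 for WT. This is 1.95-fold higher, just short of 2-fold and the highest ratio among the 14, and 92.9% of all probe sets kept had a ratio no higher. The 2 others share an accession and were both lower on the *Fbln5-/-* array. At 1421106_at the signal was 123 for *Fbln5-/-* and 289 for WT, 2.35-fold lower, and at 1421105_at it was 79.4 for *Fbln5-/-* and 122 for WT, at least 1.22-fold lower. The level of *Jag1* was therefore higher or lower according to the probe set read.

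*Jag2* encodes the other Jagged ligand, made in stratified epithelia. The stronger probe set (1426430_at) had 773 for *Fbln5-/-* and 873 for WT, a log2 ratio of −0.18. The second (1426431_at) had 287 for *Fbln5-/-* and 585 for WT, 2.04-fold lower and just past the 2-fold limit. Both were below 0, by different amounts.

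*Dll1*, a Delta-like ligand, had 435 for *Fbln5-/-* and 356 for WT at its single probe set, a log2 ratio of 0.29. *Dll4*, the Delta-like ligand of endothelium, was under 100 at both probe sets. The signals were 16.4 for *Fbln5-/-* and 83.9 for WT at 1421827_at, and 9.98 for *Fbln5-/-* and 30.6 for WT at 1421826_at. No fold is given for *Dll4*, because a ratio of readings this low cannot be interpreted here.

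*Hes1*, a transcriptional repressor and a common readout of Notch signaling, had a signal of 1316 for *Fbln5-/-* and 1596 for WT, a log2 ratio of −0.28. *Hey1*, a related repressor with a role in vessels, had 209 for *Fbln5-/-* and 214 for WT, a log2 ratio of −0.04. Both targets were measured with 1 probe set each, and both lay within 2-fold.

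**Figure D2:**
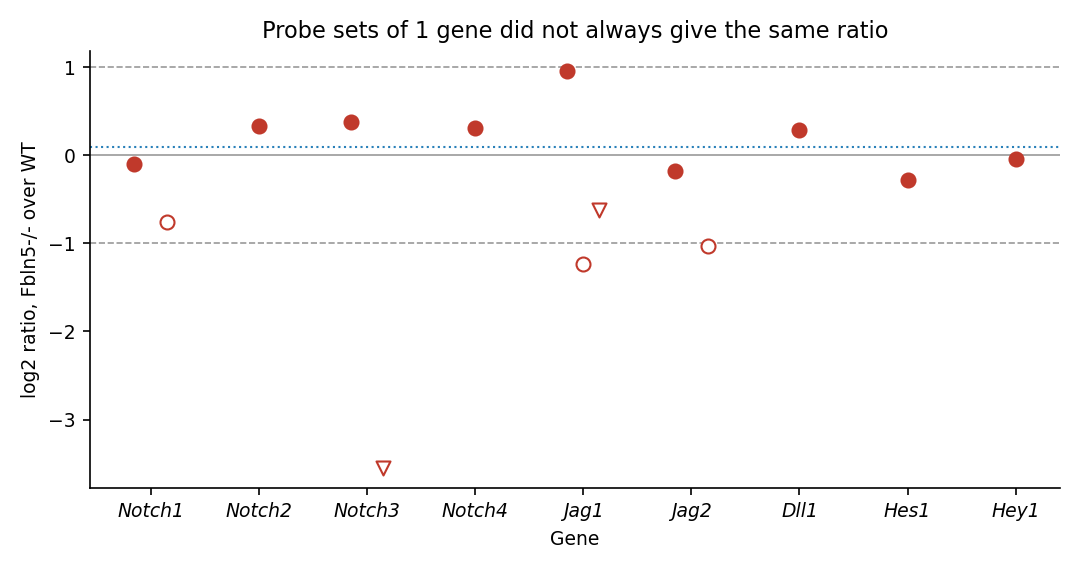
Log2 ratio of *Fbln5-/-* over WT (1 array each) for the 14 probe sets that reached 100 on at least 1 array, by gene. Filled symbols are the strongest probe set of the gene, open symbols the others, and triangles probe sets under 100 on the *Fbln5-/-* array, drawn as measured, while dashed lines mark a 2-fold difference and the dotted line the median of all probe sets kept (0.10). Filled symbols run from −0.28 to 0.96, and all 5 open symbols lie below 0.

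How far probe sets of 1 gene usually differ was then measured across the array. Of 4894 genes with several probe sets past the filter, the pooled SD of the log2 ratio within a gene was 0.88. For genes with 2 such probe sets (3063 genes) the median gap between them was 0.43. The gap was 3.93 for *Notch3*, and 1.47% of these genes had a gap as wide. The gaps of *Jag2* (0.85) and *Notch1* (0.66) were matched or exceeded in 27.1% and 36.0% of genes. For *Jag1*, with 3 probe sets, the range was 2.19, against a median of 0.81 in 1196 genes with as many, of which 13.0% were as wide. *Notch3* thus stood near the edge of the distribution, *Jag1* in its upper part, and *Jag2* and *Notch1* nearer its middle.

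In each of the 4 genes with several probe sets, the weakest probe set had a lower ratio than the strongest. For *Notch3* and *Jag1* the weakest reached 100 only on the WT array, so the filter fixed its ratio below 0. A weakest probe set with a lower ratio than the strongest was found in 65.2% of the 4894 genes, under the same filter. The median log2 ratio was 0.19 at the strongest and −0.06 at the weakest probe sets of those genes. Of the 5 weaker probe sets of *Notch1*, *Notch3*, *Jag1* and *Jag2*, 3 were at least 2-fold lower, while 14.7% of 7695 such probe sets over all genes were at least 2-fold lower and 4.86% at least 2-fold higher.

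**Figure D3:**
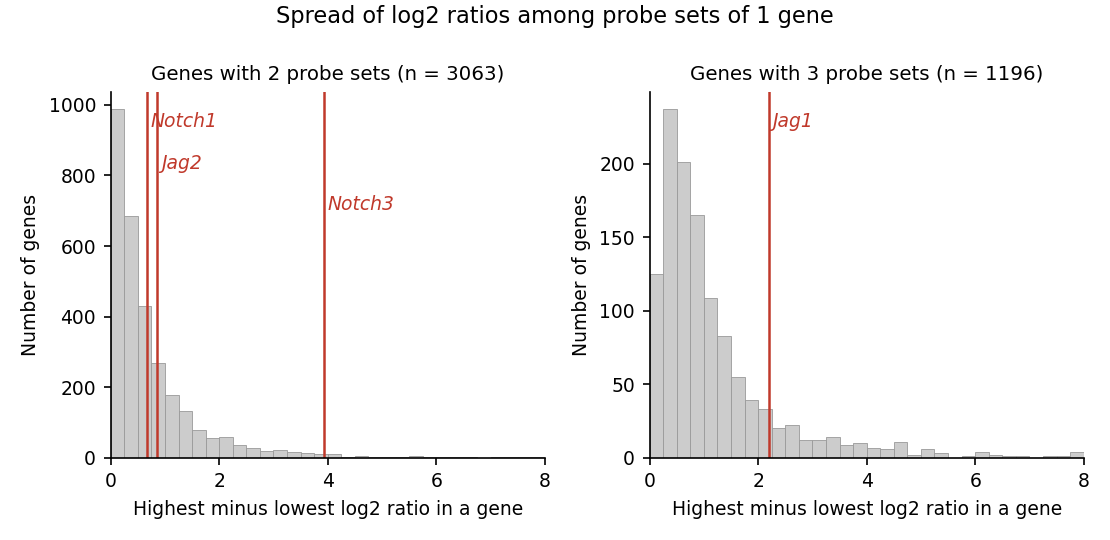
Number of genes by the gap between the highest and lowest log2 ratio (*Fbln5-/-* over WT) of their probe sets, for genes with 2 (left) and 3 (right) probe sets past the filter, with red lines at the Notch genes; the last bar also holds wider gaps. *Notch3* (3.93) lies far in the tail of its panel, while *Notch1* (0.66) and *Jag2* (0.85) lie near the bulk.

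These decreases stand beside the control probe sets placed along *Gapdh*, a glycolytic enzyme, and *Actb*, a cytoskeletal actin. The log2 ratio for *Gapdh* was 0.05 at the 3′ end, −1.16 in the middle and −4.44 at the 5′ end, and for *Actb* it was −0.18, −1.22 and −1.87 in the same order. The 5′ parts of both transcripts thus gave less signal on the *Fbln5-/-* array, while their 3′ ends were within 2-fold. The positions of the Notch probe sets on their transcripts were not used here, and the part of this gradient in the *Notch3*, *Jag1* and *Jag2* values was not tested. Nor was its part tested in the values of the other pathway genes given below, including those whose probe sets split. *Fbln5* itself had a signal of 30.5 for *Fbln5-/-* and 411 for WT at 1416164_at, at least 4.11-fold lower, and was under 100 on both arrays at its other probe set. It is not known if these probe sets cover the deleted exons.

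Cell type markers were read on the same arrays, because less RNA per cell and fewer cells of a type cannot be told apart in whole tissue. The labelled tissue carried its epithelial markers, with *Krt13*, a keratin of wet stratified epithelium, at 21205 for *Fbln5-/-* and 20007 for WT and *Krt5*, a basal keratin, at 16065 for *Fbln5-/-* and 16108 for WT. Of 12 endothelial markers, all measured, none was 2-fold different (median log2 ratio 0.08), and their summed signal was 6296 for *Fbln5-/-* and 5757 for WT. Endothelial RNA was thus measured on both arrays, on which *Dll4* stayed under 100. Of 11 mural and smooth muscle markers, 2 were higher by 2-fold or more and none lower, with a median of 0.33 and summed signals of 41780 for *Fbln5-/-* and 37374 for WT. The 2, named after their values were seen, were the pericyte markers *Rgs5* (4195 for *Fbln5-/-* and 1318 for WT) and *Abcc9* (1180.4 for *Fbln5-/-* and 495 for WT). The log2 ratios of the 11 markers ran from −0.80 for *Cspg4*, another pericyte marker, to 1.67 for *Rgs5*, whose own probe sets ran from −0.71 to 1.67, so the list had no common direction. The 8 basal and 12 suprabasal epithelial markers had medians of 0.05 and 0.16, with *Cdh3*, a cadherin of the basal layer, lower (log2 ratio −2.37) and *Ivl*, a cornified envelope protein, higher (1.36), both named after their values were seen. Medians were 0.40 over 7 fibroblast, 0.18 over 7 leukocyte and 0.37 over 4 skeletal muscle markers measured. Among these, also named after their values were seen, *Dpt*, a fibroblast matrix protein, was 2.67-fold higher, *Itgam*, a myeloid integrin, was at least 4.34-fold lower, and *Cd79a*, a B cell receptor subunit, was at least 1.44-fold higher. Both adipocyte markers that could be measured of 5 listed were higher on the *Fbln5-/-* array, with a median of 2.48. The part of any of these lists in the Notch values was not tested.

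The other genes of the pathway were taken from a list of 59, arranged by role. Of these, 46 were measured, 8 were under 100 on both arrays, and 5 had no probe set listed with their symbol alone. No gene was at least 2-fold higher at its strongest probe set and 2 were at least 2-fold lower, *Aph1a* and *Heyl*, beside the 7.21% and 4.78% of all genes given above. The median log2 ratio of the 46 genes was 0.20, against 0.16 for all genes. Over all 79 of their probe sets, as measured, none had a ratio 2-fold or more higher and 15 had one 2-fold or more lower, beside 6.49% and 8.53% of all probe sets kept. With signals under 100 set to 100, the 15 became 12, beside 6.28%. Of the 33 weaker probe sets in the list, 13 were lower as measured and 10 with signals under 100 set to 100, while the shares for weaker probe sets of all genes were 14.7% and 10.2%. In 20 of 24 genes with several probe sets the weakest had the lower ratio, as it had in 65.2% of such genes on the array. A weakest probe set that reached 100 only on the WT array, as for *Rfng* and *Tle3*, could only have a ratio below 0. Where 100 was reached only on the *Fbln5-/-* array, as for *Neurl1a*, the ratio could only be above 0. The filter thus fixed the sign for part of the weakest probe sets, here and over all genes.

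Among other ligands, *Dlk2*, a non-canonical ligand related to Delta, had a signal of 469 for *Fbln5-/-* and 583 for WT, and *Dll3* and *Dlk1* were under 100 on both arrays. The glycosyltransferases that add sugars to the receptor and tune its choice of ligand were all measured, with log2 ratios from −0.28 for *Lfng* (613 for *Fbln5-/-* and 744 for WT) to 0.14 for *Pofut1*. *Rfng*, a fringe enzyme, had 1722 for *Fbln5-/-* and 1589 for WT at its strongest probe set, and 93.5 for *Fbln5-/-* and 808 for WT at the other, a split much like that of *Notch3*. Only 3 ubiquitin ligases that draw the ligand into the sending cell were listed, *Mib2*, *Neurl1a* and *Neurl1b*. They had low signals, with *Mib2* at 208 for *Fbln5-/-* and 314 for WT. Ligases outside this list were not read.

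The proteases that cut the receptor gave the lowest ratio of any strongest probe set in the list. *Aph1a*, a subunit of γ-secretase, had 366 for *Fbln5-/-* and 1483 for WT at 1424980_s_at, 4.06-fold lower, whereas its other probe sets had log2 ratios of 0.16 and −0.22. *Psenen*, another subunit, had 5411 for *Fbln5-/-* and 5055 for WT, and *Ncstn*, the subunit that recruits the substrate, had 2672 for *Fbln5-/-* and 2050 for WT. A lower signal was therefore not shared by these γ-secretase genes. *Adam10*, which makes the first cut after ligand binding, had 3812 for *Fbln5-/-* and 2841 for WT at its strongest probe set, while a second gave 302 for *Fbln5-/-* and 1414 for WT. *Adam17*, its relative, had 2549 for *Fbln5-/-* and 1804 for WT at its strongest probe set and 47.0 for *Fbln5-/-* and 321 for WT at its weakest. Both sheddase genes thus gave opposite readings at different probe sets, as *Jag1* and *Notch3* did.

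Of the nuclear coactivators, all 6 measured had a log2 ratio above 0 at the strongest probe set, from 0.30 to 0.86 with a median of 0.55, and none reached 2-fold. Over all genes, 63.6% were above 0 at the strongest probe set. Weaker probe sets of the same genes did not all share this direction, with *Kat2a*, a histone acetyltransferase, at 386 for *Fbln5-/-* and 852 for WT at 1 of its 3 probe sets. *Rbpj*, the DNA-binding partner of the receptor, gave like values at its 3 probe sets, with log2 ratios of 0.30, 0.33 and 0.44 and signals of 1187 for *Fbln5-/-* and 878 for WT at the strongest. *Maml1*, a Mastermind-like coactivator, had 1255 for *Fbln5-/-* and 711 for WT, and *Ep300*, another acetyltransferase, had 1661 for *Fbln5-/-* and 915 for WT at its single probe set. *Snw1*, a cofactor of RBPJ, had 2647 for *Fbln5-/-* and 2136 for WT at its strongest probe set, but 99.1 for *Fbln5-/-* and 169 for WT, and 39.6 for *Fbln5-/-* and 115 for WT, at the others. *Maml2* was under 100 on both arrays. Of the 9 corepressors measured, 8 were also above 0 at the strongest probe set, with a median of 0.15 over the 9. Under 4 other scalings this count was 7 or 6, whereas all 6 coactivators stayed above 0. *Ctbp1* had 5732 for *Fbln5-/-* and 5716 for WT. *Tle3*, a Groucho-type corepressor, had 3145 for *Fbln5-/-* and 2237 for WT at its strongest probe set but 44.4 for *Fbln5-/-* and 656 for WT at another. Among 8 genes that control trafficking and turnover of the receptor, *Numb*, an inhibitor of Notch signaling, had 2755 for *Fbln5-/-* and 1664 for WT at its strongest probe set and 18.1 for *Fbln5-/-* and 119 for WT at the other, and its relative *Numbl* had 136 for *Fbln5-/-* and 255 for WT.

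**Figure D4:**
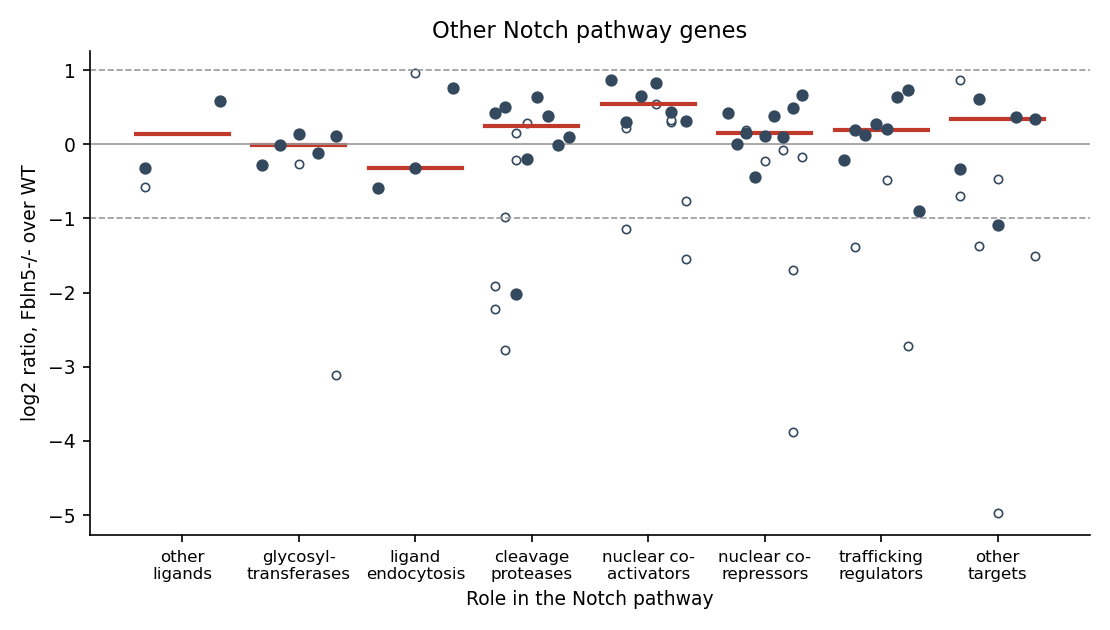
Log2 ratio of *Fbln5-/-* over WT (1 array each) of 46 other Notch pathway genes by role. Filled points are the strongest probe set of a gene, open points its other probe sets past the filter (signals under 100 drawn as measured), red bars the median of the filled points and dashed lines a 2-fold difference; 2 filled points, *Aph1a* and *Heyl*, lie below −1 and no point lies above 1.

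Of 10 further target genes, 5 were measured and 1 of these was 2-fold different. *Heyl*, a repressor of the *Hey1* family known from vascular smooth muscle, was lower at all 3 of its probe sets. Its signals were 179 for *Fbln5-/-* and 381 for WT at the strongest, 2.12-fold lower. At the others they were 94.5 for *Fbln5-/-* and 131 for WT, and 4.42 for *Fbln5-/-* and 139 for WT, the last at least 1.39-fold lower. *Heyl* was the one of these targets with the same direction at all of several probe sets, at low signals. Only its strongest probe set reached 100 on both arrays. The others were kept through the WT array alone, so the filter fixed their direction and they add no support to it. *Nrarp*, a Notch target that dampens the pathway, had 4444 for *Fbln5-/-* and 3499 for WT at its strongest probe set and 594 for *Fbln5-/-* and 1681 for WT at the other. *Myc*, a growth regulator, had 2280 for *Fbln5-/-* and 1769 for WT. *Ccnd1*, a cyclin of the G1 phase, had log2 ratios of −0.34, 0.86 and −0.70. *Hes2*, *Hes3*, *Hes5*, *Hes7* and *Hey2* were under 100 on both arrays.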

How the data were processed

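RNA from vaginal tissue was hybridized to Affymetrix mouse 430 2.0 arrays, 1 per genotype. The authors deposited signal intensities on a linear scale, made with MAS5 per the labels (the sources used here give no version). With 2% trimmed at each end, both arrays had a mean of 500.0. Detection calls were not used.

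Signals were multiplied so that both medians were equal, following the 50th percentile step of the methods (factors 1.03 for *Fbln5-/-* and 0.973 for WT), and a single signal of 0 was set to 0.1. Probe sets that reached 100 on either array were kept, without 64 control probe sets, and 2-fold was counted. Names came from the platform annotation, with 34958 probe sets listed with 1 symbol, 932 with several and 9211 not listed.

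Signals are given for every probe set of the 10 genes. Each pathway gene at least 2-fold different is named, with the strongest gene of each role and genes under 100 on both arrays. Further pathway examples were chosen after their values were seen. The members and lists were chosen with earlier results of these data known. With 1 array per genotype no test was made. The steps were run on simulated data with differences planted at higher signals and no gradient along transcripts. That run checked the code only, not the readings of these arrays. Alternatives were other scalings, filters, a floor, 32 added, 3-fold and other choices of probe set. Python 3.11.15, numpy 2.4.6, pandas 2.3.3 and matplotlib 3.10.9 were used.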

Additional observations from a re-analysis of the deposited data

How the results depend on the processing

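No paired analysis was possible because each genotype had 1 array. The log2 ratios of the 14 Notch receptor, ligand and target probe sets kept their sign under 4 other scalings and with 32 added to each signal. Adding 32 to both signals cannot change a sign, and all but 1 of the scalings shift every ratio by a common amount. The kept signs therefore say little about how reliable the ratios are. The largest shift was 0.37. The pooled SD of 0.88 between probe sets of 1 gene measures a different spread. Without a filter, 1 of the 19 Notch receptor, ligand and target probe sets was at least 2-fold higher and 5 were lower. Among their genes, 1 (*Dll4*) was lower at its strongest probe set. Of the other pathway genes, 2 were higher and 3 lower. Each call beyond those made with the filter came from signals under 100 on both arrays. Of the 14, 2 were lower with 32 added (*Jag2* at a log2 ratio of −0.95), and 2 were lower when 100 was required on both arrays, which leaves out the lower *Notch3* probe set. At 3-fold, 1 of the 14 probe sets (*Notch3*) and 1 other pathway gene (*Aph1a*) were lower. Other pathway genes at least 2-fold lower numbered 1 with 32 added, 1 without probe sets that can match several transcripts and 5 by the mean over probe sets. Among the 9 genes, counted by gene after seeing the data, 1 was lower (*Notch3*) without such probe sets and by the mean over probe sets. When the median ratio was set to 1 over probe sets that reached 100 on both, the median of all genes was 0.05 in place of 0.16, and 679 genes were higher and 698 lower, against 861 and 571. Other pathway genes at least 2-fold lower then numbered 3, against 2. Signals under 100 limit what can be said of *Dll4* and of the weaker probe sets of *Notch2* and *Notch4*.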

Other observations

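*Jag2* was the only one of the 10 genes on the chromosome of *Fbln5*, and 137 protein-coding genes lay between them in the GRCm38.p6 table. DNA kept beside the targeted allele was not analysed here.

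Promoter windows of 300 bases from RefSeq (GRCm38.p6) were found for 8 of the genes, 9 windows in all, and were searched on both strands for TGGGAA, the core motif of RBPJ. None of the 9 windows held it, while 25.6% of 32851 windows of all genes did. *Hes1* and *Hey1*, the targets in this group, had no window in the table used, so only receptors and ligands were searched. With 9 windows, a difference from the share over all genes was not tested.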
